A study of Mus musculus with 9 samples.

Results

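Monocytes and macrophages are recognised by a small set of genes, not all of them particular to these cells. Of these genes 10 were followed here in neutrophil preparations from the skin of carcinogen-treated mice: Emr1, Apoe, Lyz1, C1qa, C1qb, C1qc, Mrc1, Cd163, Ccr2 and Cx3cr1. Every probe whose gene name on the array was one of these symbols was taken, which gave 12 probes of the 10 genes, out of 55681 probes and 34797 gene names in all. Emr1 and Cx3cr1 had 2 probes each and every other gene had 1. Levels are the deposited log2 values per array, and, since probes differ in how well they bind, levels were compared between arrays; no difference between probes was read as one between genes.

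The study asked how neutrophils of skin lesions differ from those of the skin around them. FVB/N mice were given the carcinogen DMBA when 6 and again when 13 weeks old and, 2 times each week, the tumor promoter PMA on the skin from week 1 to weeks 18 to 20, and all 4 groups share this treatment, so no untreated skin was among them. Gr-1bright cells were sorted, to a stated purity above 98%, from skin next to papillomas (papilloma skin, 2 arrays), skin next to carcinomas (tumor skin, 2 arrays), papillomas (3 arrays) and carcinomas (tumor, 2 arrays). The paper reports that these cells exclusively expressed Ly6G and reads them as neutrophils rather than monocytes. It also states that eosinophils were excluded, because expression of Epx was not found. Each array held amplified RNA of cells pooled from several mice, so the spread between arrays is one between pools. Whether lesion and skin pools came from the same mice is not given in the sources used here.

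Emr1, now Adgre1, encodes the adhesion G protein-coupled receptor by which mouse macrophages are commonly sorted, and eosinophils carry it too. Inflammatory monocytes follow CCL2 through the receptor CCR2, patrolling monocytes and many resident macrophages carry CX3CR1, the receptor of fractalkine, and mature tissue macrophages make the 3 chains of C1q, which starts the classical complement pathway, along with apolipoprotein E, the mannose receptor MRC1 and the hemoglobin scavenger receptor CD163. Lysozyme cleaves bacterial cell walls; the mouse has a Lyz1 and a Lyz2 gene of nearly the same sequence, and Lyz2 is used in both macrophages and neutrophils.

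The 60-base probes behind the Emr1, apolipoprotein E, C1qa and C1qb values are shown because the results below are readings of exactly these sequences. Their positions are those of the array design on mouse build mm9, and each of the 12 probes covers 60 adjoining genomic bases, that is, a stretch of a single exon. Emr1 probe 1 lies at chr17:57620350-57620409 on the + strand, Apoe at chr7:20281732-20281791, C1qa at chr4:136452409-136452468 and C1qb at chr4:136436578-136436637, the last 3 on the - strand.
Emr1 probe 1: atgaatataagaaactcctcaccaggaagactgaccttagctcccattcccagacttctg
Apoe: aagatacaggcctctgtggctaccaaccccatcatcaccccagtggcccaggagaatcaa
C1qa: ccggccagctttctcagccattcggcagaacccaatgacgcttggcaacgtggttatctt
C1qb: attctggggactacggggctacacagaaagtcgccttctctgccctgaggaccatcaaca

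The second Emr1 probe lies at chr17:57622868-57622927 on the + strand. The C1qc probe, at chr4:136445766-136445825 on the - strand, sits between those of C1qb and C1qa. Mrc1 was read at chr2:14253273-14253332 and Cd163 at chr6:124270436-124270495, both on the + strand. Lyz1 was read at chr10:116724862-116724921 on the - strand, Ccr2 at chr9:124022948-124023007 on the + strand, and Cx3cr1 at chr9:119959018-119959077 and chr9:119957811-119957870 on the - strand. Levels of 11 probes were well above background on all 9 arrays by the scanner's own mark, and Cd163 was so on 4 of the 9. No spot was saturated.

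The 2 arrays labelled papilloma skin 1 and tumor 1 stood apart before any gene was looked at. The column of the value table for papilloma skin 1 followed the signals of its own scanner file with a Spearman rho of 0.588, while 7 other columns followed theirs with 0.931 to 0.980 and tumor 1 with 0.827. Both of these columns were closer to the file of tumor 2 than to their own, with 0.924 and 0.947. The columns of papilloma 2 and papilloma 3 were each closest to the other's file, with 0.981 against 0.936 for its own and 0.959 against 0.940. Whether these 4 columns were processed differently or carry another array's label was not tested, and a wrong label would change what the values of papilloma skin, papilloma and tumor arrays named here stand for. Papilloma skin 1, tumor skin 1 and tumor 1 also had flatter spike-in slopes, 0.678 to 0.894 against 1.04 to 1.06 on the other 6 arrays, and 90.7 to 95.04% of their probes were marked well above background against 44.2 to 64.2%. The lesion differences of the members are therefore also given without papilloma skin 1 or from the scanner signals. Where an array is left out of a pair, the lone array that remains is assumed to vary like the other groups, and the p rests on their spread.

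Transcripts of the listed neutrophil genes were measured in the sorted cells, though the level used does not single out neutrophils. All 15 probes of the 14 listed neutrophil genes were measured at a mean level above 6, and the sum of their signals lay between 19.83 and 20.45 on the log2 scale on the 9 arrays. Of all 55681 probes, 28871 reached a mean level of 6. In the lists of other cells, 1 of 22 monocyte and macrophage probes and 2 of 20 keratinocyte probes lay under it. Ly6g, the antigen of the Gr-1 gate, had group means of 10.63 in papilloma skin, 12.44 in tumor skin, 9.56 in papillomas and 10.35 in tumors. Lysozyme, among the genes named here, is not particular to macrophages and monocytes. Lyz2 is used in neutrophils too, and whether the Lyz1 probe also reads Lyz2 was not tested. The set thus describes transcripts used as macrophage and monocyte markers, measured in neutrophil preparations and not in sorted macrophages. In such preparations fewer cells of a type and less RNA per cell cannot be told apart.

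Emr1 and lysozyme were lower in lesion preparations, and no C1q chain was called in either direction. Of the 12 probes, 3 fell and none rose in tumors against tumor skin, and 3 fell and none rose in papillomas against papilloma skin; in both comparisons they were the 2 Emr1 probes and Lyz1. A probe was called when limma's adjusted p was at most 0.05, the absolute log2 fold change at least 1 and the mean log2 level at least 6. By that rule 4.21% of all probes were called in tumors against tumor skin, 2.71% higher and 1.51% lower, and 3.18% in papillomas against papilloma skin, 2.18% higher and 1.00% lower. The median log2 fold change of the 12 probes was -0.80 in tumors and -1.03 in papillomas, beside medians over all probes of -0.02 and -0.01. At an unadjusted p under 0.05, limma marked 7 of the 12 probes in tumors and 10 in papillomas, among 14997 and 11540 of all probes.

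**Figure D1:**
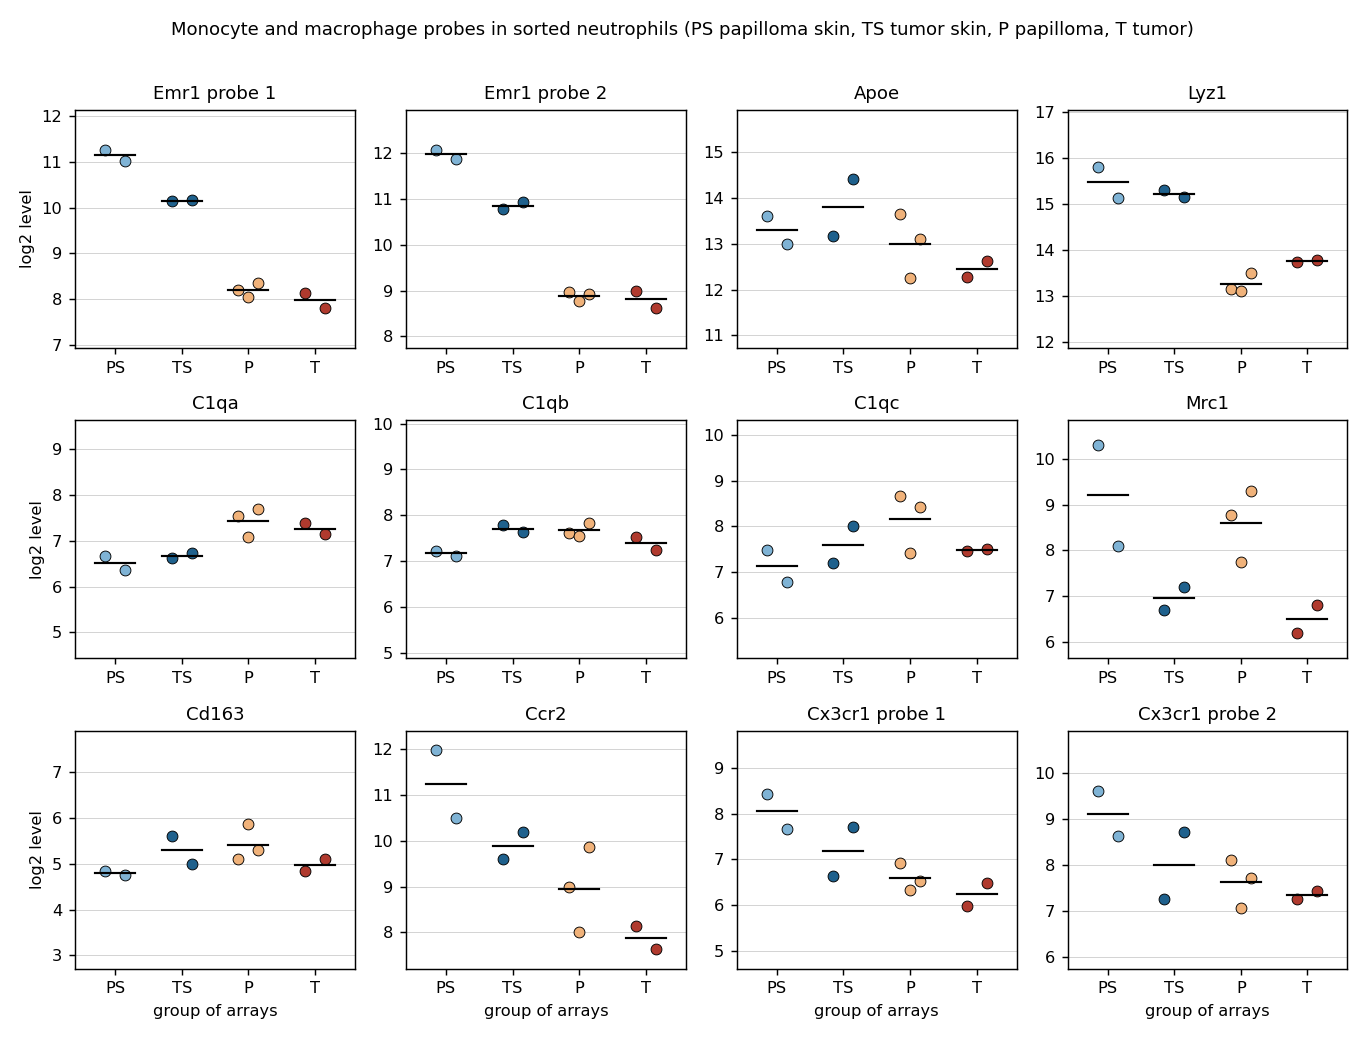
Log2 level of each of the 12 probes (y axis, the same span of 5.2 units in every panel) on every array of the 4 groups (x axis: PS papilloma skin, TS tumor skin, P papilloma, T tumor); points are arrays and bars are group means. Both Emr1 probes and Lyz1 lie lower on every lesion array than on every skin array, and the C1qb points of the 4 groups lie between 7.12 and 7.84.

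Emr1 separated all skin arrays from all lesion arrays. Probe 1 read 11.26 and 11.01 in papilloma skin, 10.13 and 10.16 in tumor skin, 8.19, 8.05 and 8.35 in papillomas and 8.14 and 7.81 in tumors. The lowest skin array thus stood well above the highest lesion array, and among the skin arrays those next to papillomas were higher than those next to tumors. In papillomas the level was 7.68-fold below papilloma skin (log2 fold change -2.94, SE 0.161, limma adjusted p = 0.000158). In tumors it was 4.49-fold below tumor skin (-2.17, SE 0.176, limma adjusted p = 0.00092). The 95% intervals were -3.31 to -2.57 and -2.57 to -1.76.

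Emr1 probe 2 gave the same picture from another stretch of the transcript. It read 12.07 and 11.87 in papilloma skin, 10.78 and 10.93 in tumor skin, 8.96, 8.77 and 8.92 in papillomas and 8.996 and 8.63 in tumors. No lesion array reached a skin array. The fall was 8.49-fold in papillomas (log2 fold change -3.09, SE 0.157, limma adjusted p = 0.000121) and 4.11-fold in tumors (-2.04, SE 0.172, limma adjusted p = 0.00108).

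Leaving out the arrays in doubt moved both Emr1 differences little, and the papilloma difference was smaller from the scanner signals. Without papilloma skin 1 the papilloma difference was -2.82 for probe 1 and -2.99 for probe 2, both with a limma adjusted p of 0.00396, on 1 papilloma skin array. With papilloma skin 1 and tumor 1 both left out, the tumor difference was -2.33 and -2.23, both with an adjusted p of 0.0151, on 1 tumor array. In the quantile-normalized scanner signals probe 1 read 8.45 on papilloma skin 1 and 10.83 on papilloma skin 2, against 8.30, 8.31 and 8.29 in papillomas, 10.15 and 10.25 in tumor skin and 8.88 and 7.69 in tumors. There papilloma skin 1 lay beside the papillomas rather than beside papilloma skin 2, while tumor skin and tumors kept apart. Over 6 ways of using the scanner signals the papilloma difference of probe 1 lay between -2.53 and -1.19 and the tumor difference between -2.55 and -1.86, and none of these passed the test in either comparison.

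Slides were shared by several groups, and in the value table Emr1 was lower in the lesion on each slide that held a lesion and its own skin. On slide 1 papilloma 1 differed from papilloma skin 1 by -3.07 for probe 1 and -3.11 for probe 2, and on slide 2 papilloma 2 differed from papilloma skin 2 by -2.96 and -3.10. Tumor 1 differed from tumor skin 1 on slide 1 by -1.99 and -1.78. Tumor 2 and tumor skin 2 were on different slides. The slide 1 papilloma pair rests on the papilloma skin 1 column: in the scanner signals papilloma 1 and papilloma skin 1 read 8.30 and 8.45 by probe 1 and 9.14 and 8.85 by probe 2, so that probe 2 was higher in the lesion there. The other pairs kept their direction in the scanner signals, with 8.31 in papilloma 2 and 10.83 in papilloma skin 2 and with 8.88 in tumor 1 and 10.15 in tumor skin 1 by probe 1.

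Between the skins Mrc1 differed most without a call, and 1 of the 2 Emr1 probes was called, a call lost in most other settings. Tumor skin was 2.17-fold below papilloma skin by probe 2 (log2 fold change -1.12, SE 0.172, limma adjusted p = 0.0470), and by probe 1 the difference was -0.99 (SE 0.176, limma adjusted p = 0.0519), just outside the rule. It was the only call among the 12 probes in that comparison, in which 0.260% of all probes were called. At an unadjusted p under 0.05, limma marked 4 of the 12. The call was lost when any 1 of the 9 arrays was left out (adjusted p 0.0612 to 0.222), and from the scanner signals the probe 2 difference turned to between 0.73 and 0.91 in 5 of 6 settings, the 6th, without papilloma skin 1, tumor skin 1 and tumor 1, giving -0.29.

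Lysozyme likewise separated skin from lesions. Lyz1 read 15.81 and 15.14 in papilloma skin, 15.30 and 15.16 in tumor skin, 13.14, 13.11 and 13.50 in papillomas and 13.73 and 13.79 in tumors. Skin and lesion arrays did not overlap, and the 2 tumors lay above the 3 papillomas. The fall was 4.69-fold in papillomas (log2 fold change -2.23, SE 0.215, limma adjusted p = 0.00114) and 2.77-fold in tumors (-1.47, SE 0.236, limma adjusted p = 0.0098). The tumor call was lost without tumor 1 (adjusted p = 0.0510) or tumor 2 (0.0669), and with slide as a term (0.105). Without papilloma skin 1 the papilloma difference was -1.89 (limma adjusted p = 0.00869, on 1 papilloma skin array). From the scanner signals the papilloma difference lay between -1.82 and -0.25 and the tumor difference between -1.83 and -1.49.

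Lyz1 is uncertain as a reading of that gene alone, since the transcripts of Lyz1 and Lyz2 are nearly the same and binding of one to the other's probe was not tested. The same holds for the probe named for Lyz2, which read 14.22 and 13.18 in papilloma skin, 13.50 and 12.48 in tumor skin, 10.19, 10.78 and 11.20 in papillomas and 11.19 and 11.30 in tumors. Its skin and lesion arrays did not overlap either. It fell in papillomas (log2 fold change -2.98, SE 0.42, limma adjusted p = 0.00582) and reached -1.74 in tumors (SE 0.46, limma adjusted p = 0.0502). Without papilloma skin 1 and tumor 1 together the papilloma call of Lyz2 was lost (adjusted p = 0.0823).

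The stretches before the 2 lysozyme start sites are printed because both probes, which may not read the 2 genes apart, were lower in lesions. They come from RefSeq on build GRCm38.p6, which is not the build of the probe positions, and both are on the - strand: Lyz1 at chr10:117292869-117293018 and Lyz2 at chr10:117282273-117282422. Capitals mark ACTTCCT, which is AGGAAGT on the opposite strand and holds the GGAA core bound by ETS factors such as PU.1, a regulator of myeloid genes.
Lyz1: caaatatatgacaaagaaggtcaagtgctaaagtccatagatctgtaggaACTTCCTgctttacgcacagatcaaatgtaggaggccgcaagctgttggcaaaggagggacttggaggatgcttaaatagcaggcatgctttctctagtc
Lyz2: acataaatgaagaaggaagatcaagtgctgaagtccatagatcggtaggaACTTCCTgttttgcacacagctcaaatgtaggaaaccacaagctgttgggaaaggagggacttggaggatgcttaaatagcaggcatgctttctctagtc

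Of these 150 bases, 129 were identical between Lyz1 and Lyz2 (86.0%), and the marked letters stood at positions -100 to -94 from the start in both. Promoters of 300 bases were listed for 8 of the 10 genes, and AGGAAGT was searched on both strands. It occurred once each for Lyz1, C1qb, C1qc and Mrc1, and not in the windows of Apoe, Cd163, Ccr2 and Cx3cr1. Among all 32851 listed promoters 3072 held it, or 9.35%. Of the genes with a match, Lyz1 fell and C1qb, C1qc and Mrc1 were not called; a match of letters does not show a site.

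The 2 chemokine receptors of monocytes had lower means in lesions without passing the test. Ccr2 read 11.98 and 10.49 in papilloma skin, 9.59 and 10.20 in tumor skin, 8.99, 8.01 and 9.87 in papillomas and 8.14 and 7.63 in tumors. Each lesion lay below its own skin, but papilloma 3 reached into the range of tumor skin. The log2 fold change was -2.28 in papillomas (SE 0.577, limma adjusted p = 0.0577) and -2.01 in tumors (SE 0.632, limma adjusted p = 0.0838).

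Its 95% intervals, -3.60 to -0.95 and -3.46 to -0.56, did not hold 0 but were wide. The papilloma difference passed the rule with slide as a term (-2.70, adjusted p = 0.0109) and without papilloma 3 (-2.74, adjusted p = 0.0444). Without papilloma skin 1 it was -1.53 (adjusted p = 0.268). Within slides Ccr2 differed by -2.99 on slide 1 and -2.48 on slide 2 between papillomas and papilloma skin. From the scanner signals it lay between -1.76 and -0.71 in papillomas and between -3.08 and -1.39 in tumors.

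Cx3cr1 probe 1 read 8.43 and 7.67 in papilloma skin, 6.65 and 7.71 in tumor skin, 6.91, 6.33 and 6.52 in papillomas and 5.99 and 6.48 in tumors. Tumor skin 1 was as low as the papillomas, whereas tumor skin 2 was as high as papilloma skin 2. The log2 fold change was -1.47 in papillomas (SE 0.360, limma adjusted p = 0.0517) and -0.94 in tumors (SE 0.395, limma adjusted p = 0.170). The papilloma value passed the rule without tumor skin 1 or tumor skin 2 (both -1.47, adjusted p = 0.0226) and was -1.09 without papilloma skin 1 (adjusted p = 0.243). From the scanner signals it lay between -1.38 and 0.93, so its direction turned in 5 of the 6 settings.

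Cx3cr1 probe 2 read 9.61 and 8.63 in papilloma skin, 7.26 and 8.73 in tumor skin, 8.11, 7.06 and 7.72 in papillomas and 7.27 and 7.43 in tumors. Papillomas again lay below papilloma skin, and tumors overlapped tumor skin. The log2 fold changes were -1.48 (SE 0.479, limma adjusted p = 0.122) and -0.65 (SE 0.525, limma adjusted p = 0.473). The papilloma value was -0.99 without papilloma skin 1 (limma adjusted p = 0.434) and turned to above 0 in 5 of 6 scanner settings, which ran from -0.75 to 1.52. The tumor value ran from -1.38 to 0.09 when arrays were left out in turn and from -2.88 to -0.96 from the scanner signals.

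**Figure D2:**
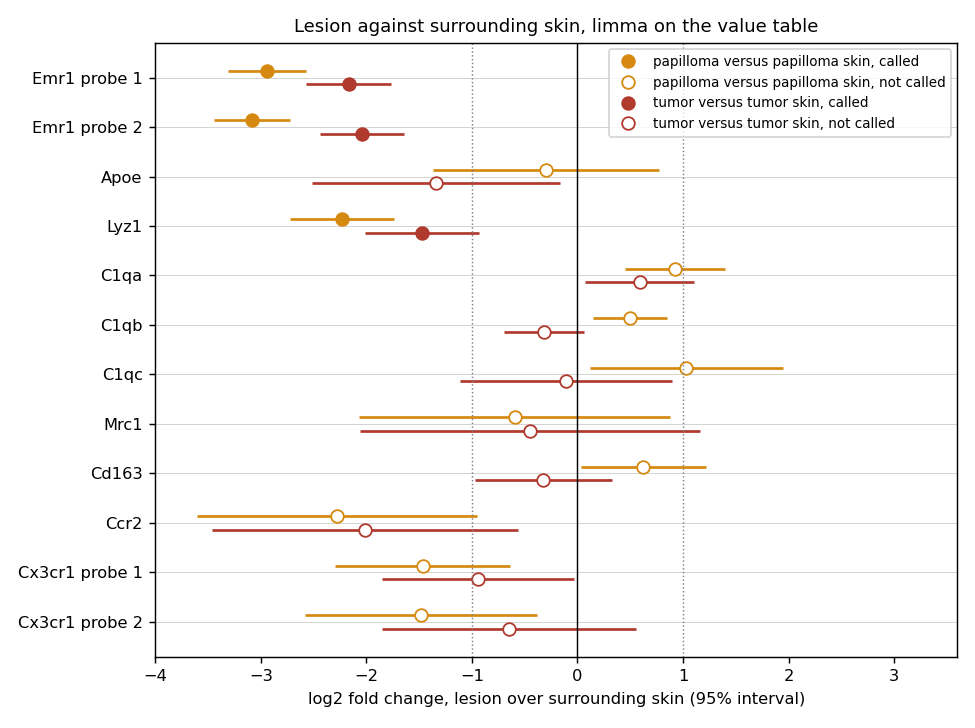
Log2 fold change of lesion over surrounding skin (x axis) for each of the 12 probes (y axis), papillomas in orange and tumors in red; bars are 95% intervals of limma, filled points passed the calling rule (Cd163 was near background), and dotted lines mark a change of 1. Filled points are found at Emr1 and Lyz1, while C1qa lies to the right of 0 in both comparisons.

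The C1q chains, products of adjoining genes that assemble into a single protein, did not share the fall of Emr1. C1qa, the A chain, read 6.67 and 6.37 in papilloma skin, 6.62 and 6.74 in tumor skin, 7.53, 7.08 and 7.70 in papillomas and 7.39 and 7.14 in tumors. Every lesion array was above every skin array. The log2 fold change was 0.92 in papillomas (SE 0.206, limma adjusted p = 0.0372), under the fold the rule asks for, and 0.59 in tumors (SE 0.225, limma adjusted p = 0.139). It passed the rule without papilloma 2 (1.10, adjusted p = 0.0225), and without papilloma skin 1 it was 1.07 (adjusted p = 0.0834).

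C1qb, the B chain, read 7.22 and 7.12 in papilloma skin, 7.79 and 7.63 in tumor skin, 7.62, 7.55 and 7.84 in papillomas and 7.53 and 7.25 in tumors. Papillomas were above papilloma skin and tumors below tumor skin. The differences were small, 0.50 in papillomas (SE 0.152, limma adjusted p = 0.103) and -0.32 in tumors (SE 0.166, limma adjusted p = 0.264). The 95% interval in tumors ran from -0.70 to 0.06. Without papilloma skin 1 the papilloma value was 0.55 (limma adjusted p = 0.205), and from the scanner signals it lay between 0.03 and 0.68 in papillomas and between -0.43 and 0.67, above 0 in 5 of 6 settings, in tumors.

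C1qc, the C chain, read 7.49 and 6.78 in papilloma skin, 7.19 and 8.00 in tumor skin, 8.66, 7.42 and 8.42 in papillomas and 7.47 and 7.51 in tumors. Papilloma 2 fell within the range of papilloma skin, and tumors lay between the 2 tumor skin arrays. The log2 fold change was 1.03 in papillomas (SE 0.400, limma adjusted p = 0.189) and -0.11 in tumors (SE 0.438, limma adjusted p = 0.907). From the scanner signals the papilloma differences of C1qa lay between 1.26 and 3.002 and those of C1qc between 1.86 and 3.80, and both passed the rule after ComBat (2.96, adjusted p = 0.0146, and 3.72, adjusted p = 0.0182). In tumors the scanner values lay between 0.32 and 0.84 for C1qa and between -1.002 and -0.24 for C1qc. Papilloma skin 1 alone reads 3.56 for C1qa and 3.36 for C1qc there, against 5.72 and 6.16 on papilloma skin 2.

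Among 5047 probes of named genes with a mean level of at least 6 and an SD of at least 0.5, those whose levels ran most like the mean of the 3 chains over the 9 arrays were Gm525, EU616813, Dkk3, Chmp4b and Fcrla. Their Pearson r was 0.911, 0.903, 0.900, 0.897 and 0.892, given as a description over arrays that share groups and slides. None of the 5 is in the marker lists used here.

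Apolipoprotein E, which carries lipid to cells, varied widely within groups. Apoe read 13.61 and 12.99 in papilloma skin, 13.17 and 14.41 in tumor skin, 13.65, 12.24 and 13.11 in papillomas and 12.28 and 12.62 in tumors. Tumors lay below tumor skin and papillomas spanned papilloma skin. The log2 fold change was -1.34 in tumors (SE 0.510, limma adjusted p = 0.137) and -0.30 in papillomas (SE 0.466, limma adjusted p = 0.774), and the tumor value moved to -0.72 without tumor skin 2. The papilloma value ran from -0.62 to 0.08 when arrays were left out in turn and was above 0 in all 6 scanner settings, between 0.04 and 1.21. The tumor value lay between -2.14 and -1.17 there.

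The mannose receptor gene was ordered by stage more than by tissue in the value table. Mrc1 read 10.29 and 8.10 in papilloma skin, 6.70 and 7.20 in tumor skin, 8.77, 7.75 and 9.30 in papillomas and 6.19 and 6.81 in tumors. The 5 arrays of the papilloma stage were all above the 4 of the tumor stage, with a gap of more than 2 units between the papilloma skin arrays themselves. Tumor skin differed from papilloma skin by -2.25 (SE 0.703, limma adjusted p = 0.130) and tumors from papillomas by -2.10 (SE 0.642, limma adjusted p = 0.213), neither a call. Against their own skin the differences were -0.59 in papillomas (SE 0.642, limma adjusted p = 0.663) and -0.45 in tumors (SE 0.703, limma adjusted p = 0.729).

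On the scanner signals Mrc1 read 2.83 on papilloma skin 1 and 8.06 on papilloma skin 2. The papilloma difference accordingly turned to between 0.62 and 3.30 there. Tumor skin minus papilloma skin lay between -0.38 and 1.93, while the tumor difference lay between -1.28 and -0.23. Tumors minus papillomas kept its sign, between -2.65 and -1.53. Without papilloma skin 1 the value table gave 0.50 for papillomas (limma adjusted p = 0.715).

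Cd163, the receptor that takes up hemoglobin bound to haptoglobin, was near the background. It read 4.83 and 4.76 in papilloma skin, 5.59 and 4.99 in tumor skin, 5.10, 5.86 and 5.30 in papillomas and 4.83 and 5.09 in tumors, with a mean level of 5.15 that kept it from being called. It was well above background on papilloma skin 1, tumor skin 1, papilloma 3 and tumor 1, but 3 of these 4 are the arrays on which nearly all probes carry that mark, so the mark says little there. Its differences of 0.62 in papillomas and -0.33 in tumors, which enter the median and the plot of lesion differences, are thus those of a probe near background, and from the scanner signals they lay between -1.25 and 1.12 and between -0.93 and 0.09.

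By limma none of the 12 probes was called in tumors against papillomas, where 0.447% of all probes were called. That does not show the 2 lesions alike, and 2 probes, Lyz1 and Mrc1, had an unadjusted p under 0.05. Mrc1 differed by -2.10 (95% interval -3.58 to -0.63), with both tumor arrays below all papillomas. Lyz1 was 0.51 higher in tumors on the log2 scale (SE 0.215, limma adjusted p = 0.335), and the 2 tumors lay above all papillomas. For Emr1 the differences were -0.22 for probe 1 and -0.07 for probe 2, with 95% intervals of -0.59 to 0.15 and -0.43 to 0.29.

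The lesion effects of the 2 stages were compared by their difference, tumor minus tumor skin against papilloma minus papilloma skin. None of the 12 probes was called by limma (5 at an unadjusted p under 0.05), and 0.0269% of all probes were. For Emr1 that difference was 1.05 for probe 2 (SE 0.233, limma adjusted p = 0.150) and 0.77 for probe 1 (SE 0.239, limma adjusted p = 0.225), and from the scanner signals it turned to between -1.50 and -0.29 and between -0.73 and -0.02. For C1qb it was -0.82 (SE 0.225, limma adjusted p = 0.196), and above 0 in 5 of 6 scanner settings, which ran from -1.11 to 0.59.

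Other genes of monocytes and macrophages gave a mixed picture. Of 31 listed genes 29 were on the array with 37 probes, of which 0 rose and 1 fell in tumors and 0 rose and 5, of 4 genes, fell in papillomas. The median log2 fold change was -0.20 and -0.41. Cd14, Csf1r and Cd68, which mark the lineage broadly, had none of their probes called: Cd14 differed by 0.23 in tumors and 0.31 in papillomas, and 1 of 3 Csf1r probes, for the receptor of macrophage colony-stimulating factor, by -0.17 and -0.47.

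Those that fell in papillomas were Lyz2, F13a1, the coagulation factor XIII A chain of monocytes, Sepp1, now Selenop, for the selenium carrier, and Msr1, a scavenger receptor. F13a1 read 12.35 and 11.30 in papilloma skin, 9.90 and 10.77 in tumor skin, 8.84, 7.89 and 8.95 in papillomas and 8.47 and 8.34 in tumors. All lesion arrays lay below all skin arrays. It fell by 3.26 in papillomas on the log2 scale (-3.26, SE 0.42, limma adjusted p = 0.00418) and by 1.93 in tumors (-1.93, SE 0.46, limma adjusted p = 0.0380), but from the scanner signals the papilloma difference lay between -2.40 and 0.81. The tumor call was lost without tumor skin 2, papilloma 1, papilloma 3, tumor 1 or tumor 2. The other F13a1 probe also fell in papillomas and lay between -3.66 and -0.72 from the scanner signals. Its papilloma call was lost without either papilloma skin array.

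Sepp1 reached -1.31 in papillomas (limma adjusted p = 0.0470), a call lost without any 1 of the 9 arrays (adjusted p 0.0508 to 0.227) and turned to 0.61 by scaling the scanner signals to their 75th percentile. Msr1 reached -1.63 by 1 of its 2 probes (limma adjusted p = 0.0372). That call was lost without papilloma skin 1, any papilloma or any tumor array (adjusted p 0.0619 to 0.165), and its scanner values ran from -1.39 to 0.33.

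Among the ligands of CCR2, CX3CR1 and the Csf1r receptor, only ligands of the last had called probes. Of 7 genes for ligands with 10 probes, 3 probes of 1 gene rose in tumors and 4 probes of 2 genes in papillomas, and none fell. Over all probes, 2.71% were called higher in tumors and 2.18% in papillomas. Csf1, macrophage colony-stimulating factor, read 11.04 and 10.99 in papilloma skin, 10.55 and 10.29 in tumor skin, 12.97, 13.11 and 13.18 in papillomas and 12.98 and 12.95 in tumors by the probe with the largest rise in tumors. Lesion and skin arrays were far apart. That probe rose by 2.54 in tumors (SE 0.15, limma adjusted p = 0.00043) and 2.07 in papillomas (SE 0.14, limma adjusted p = 0.000261), and another Csf1 probe, at 0.34 and 0.59, did not pass. From the scanner signals the rise of the probe shown was 1.47 to 2.61 in tumors and 1.93 to 4.28 in papillomas. The brightest Csf1 probe, also called in both lesions, rose less. With arrays left out in turn its rise was 1.33 to 1.42 in tumors and 1.29 to 1.41 in papillomas. Il34, the other ligand of that receptor, rose by 1.69 in papillomas (limma adjusted p = 0.0220), a call lost without papilloma skin 2, papilloma 2 or papilloma 3 (adjusted p 0.0641 to 0.142). Ccl2, the ligand of CCR2, differed by 0.76 in tumors and -1.37 in papillomas, and Cx3cl1, that of CX3CR1, by -0.58 and -0.14, none of them calls.

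Complement genes other than C1q were called about as often as probes in general, of which 4.21% were called in tumors and 3.18% in papillomas. Of 30 listed genes 27 were on the array with 40 probes; 0 rose and 1 fell in tumors, and 0 rose and 2 fell in papillomas. Cfd, the serine protease adipsin, fell by 1.43 in tumors (-1.43, limma adjusted p = 0.0250), a call lost without either tumor skin array or tumor 2 (adjusted p 0.0573 to 0.143). In papillomas Cfd fell by 1.47 (-1.47, limma adjusted p = 0.0180), which was lost without papilloma skin 2, papilloma 1 or papilloma 2 (0.0519 to 0.122). C4b, which C1 cleaves, fell by 1.06 in papillomas (-1.06, limma adjusted p = 0.0350); that was lost without either papilloma skin array, papilloma 1 or papilloma 2 (0.0857 to 0.141), and its scanner values ran from -0.87 to 0.95.

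Around Apoe, 18 genes of lipid transport were measured by 26 probes, and 2 probes rose and 2 fell in tumors and 2 rose and 1 fell in papillomas. Abca1, the cholesterol exporter that loads apolipoprotein E, rose by 2.42 in tumors (SE 0.16, limma adjusted p = 0.000496) and 2.16 in papillomas (SE 0.14, limma adjusted p = 0.000261). Mylip, which marks lipoprotein receptors for breakdown, rose by 1.70 (limma adjusted p = 0.00219) and 1.21 (0.0046). Apoc2 differed by -1.11 in tumors (limma adjusted p = 0.0326), lost without tumor skin 2, papilloma 3, tumor 1 or tumor 2 (0.0534 to 0.193). One Sorl1 probe reached -1.63 in tumors (limma adjusted p = 0.0427), lost without either tumor skin array, any papilloma or tumor 2 (0.0617 to 0.235).

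In the 11 genes of hemoglobin scavenging around Cd163, 16 probes gave 1 rise and 1 fall in tumors and 1 fall in papillomas. Hmox1, heme oxygenase, reached 2.82 in tumors (limma adjusted p = 0.0422), and the call was lost without either papilloma skin array, either tumor skin array, papilloma 1 or tumor 2 (0.0546 to 0.232). Slc40a1, the iron exporter ferroportin, differed by -1.64 in tumors (limma adjusted p = 0.0172), lost without tumor skin 1 or tumor 2 (0.0686 to 0.108). Hp, haptoglobin, fell by 1.27 in papillomas (-1.27, limma adjusted p = 0.00271) and stood at 0.0316 after scaling the scanner signals to their 75th percentile.

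Markers of other cells differed in direction from list to list. None of 9 mast cell probes was called in either lesion comparison. Of 11 T cell and 11 fibroblast probes, 1 each fell in tumors and none was called in papillomas. Of 20 keratinocyte probes, 3 rose in tumors and 2 in papillomas, and none fell. Of 10 eosinophil genes with 11 probes, 6 genes fell in tumors and 6 in papillomas, and 1 gene, Siglec5, the array's name for Siglec-F, rose in tumors by both probes. Ear2, an eosinophil-associated ribonuclease, read 13.22 and 12.72 in papilloma skin, 11.69 and 12.06 in tumor skin, 9.27, 8.38 and 9.65 in papillomas and 9.15 and 8.02 in tumors, the order of groups seen for Emr1. It fell in both lesions, with log2 fold changes of -3.29 in tumors (limma adjusted p = 0.00647) and -3.87 in papillomas (limma adjusted p = 0.00212).

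Ear11 differed by -2.72 and -3.16 and Ear6 by -1.89 and -1.19, all called. The eosinophil granule genes Epx and Prg2 were well above background on 3 and 4 of the 9 arrays. The summed eosinophil signal lay between 14.10 and 14.49 in papilloma skin, 13.57 and 13.61 in tumor skin, 12.22 and 12.55 in papillomas and 13.15 and 13.31 in tumors. Most of the sum in tumors was Siglec5, whose brighter probe read 12.87 on tumor 1 and 12.74 on tumor 2. The part of eosinophils in the Emr1 result was not tested. Siglec5 rose by 1.38 and 1.59; the first call was lost without tumor skin 2, tumor 1 or tumor 2 (adjusted p 0.0593 to 0.0796) and the second without tumor 2 (0.0784).

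Of 14 neutrophil genes, 6 fell in tumors and 4 in papillomas and none rose. Among them was Ly6g, which fell in tumors (-2.09, limma adjusted p = 0.00894), a call lost without tumor 2 (0.0650), and differed by -1.08 in papillomas (0.0777). Camp, cathelicidin, reached -3.57 in tumors and -4.14 in papillomas by 1 of its 2 probes, Ngp -3.39 and -3.27, and Ltf, lactoferrin, -2.31 and -2.46, where the tumor call of Ltf was lost without tumor 1 (adjusted p = 0.0546). Lcn2 reached -1.46 in tumors, lost without tumor skin 2, tumor 1 or tumor 2 (0.0512 to 0.0938). The part of these genes in the Lyz1 result was not tested.

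The monocyte and macrophage list of 17 genes, which holds the 10 members and Cd14, was also summed, a measure in which strong signals weigh most. The Cd14 probe alone read 17.35 to 17.95 and held most of the sum on every array, so the sum says little about the other genes. The sum lay between 18.25 and 18.26 in papilloma skin, 18.06 and 18.14 in tumor skin, 18.17 and 18.31 in papillomas and 17.92 and 18.19 in tumors. The sum for B and plasma cell genes was 13.36 to 15.26 in skin and 8.97 to 9.82 in lesions. Of their 8 probes, 5 had a mean level under 6, and 2 fell in tumors and 1 in papillomas. Their median log2 fold change was -0.83 in tumors and -0.27 in papillomas, so the sum does not show a fall of the whole list. Of 9 endothelial genes, 2 were called higher in tumors and 7 in papillomas. Of 13 genes of dendritic and Langerhans cells, which share many genes with macrophages, 3 fell in tumors, and 1 rose and 1 fell in papillomas, with a median of -0.69 and 0.19; their sum lay between 14.73 and 15.34 in tumor skin, 14.27 and 14.42 in tumors, 15.12 and 15.70 in papilloma skin and 15.44 and 15.95 in papillomas. Red blood cell genes summed to 18.61 and 19.14 in tumors and to at most 16.83 in the other groups. Of the 6 genes, 5 rose in tumors and 3 fell in papillomas. The part of these cells in the members' results was not tested.

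**Figure D3:**
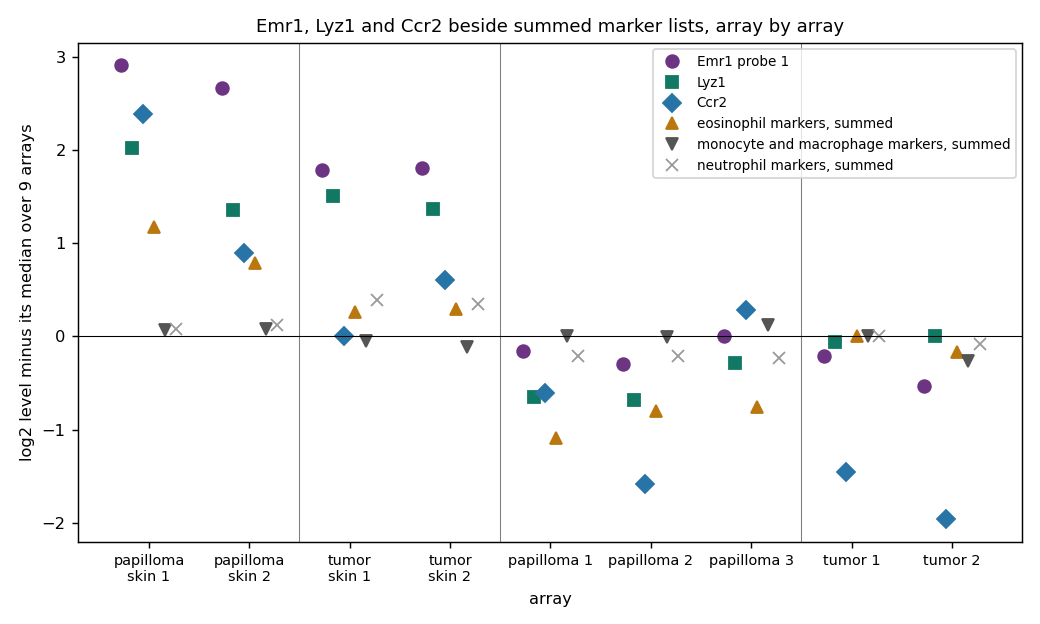
Log2 level minus its median over the 9 arrays (y axis) of Emr1 probe 1, Lyz1 and Ccr2 and of 3 summed marker lists, on each array (x axis; vertical lines part the groups). Emr1 and the eosinophil sum are highest on the 2 papilloma skin arrays. In tumors the eosinophil sum, mostly Siglec5 there, lies above that of papillomas, whereas Emr1 overlaps. Lyz1 is higher on all skin arrays than on all lesion arrays. The monocyte and macrophage sum, mostly Cd14, stays between 17.92 and 18.31 on all 9 arrays.

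**Figure D4:**
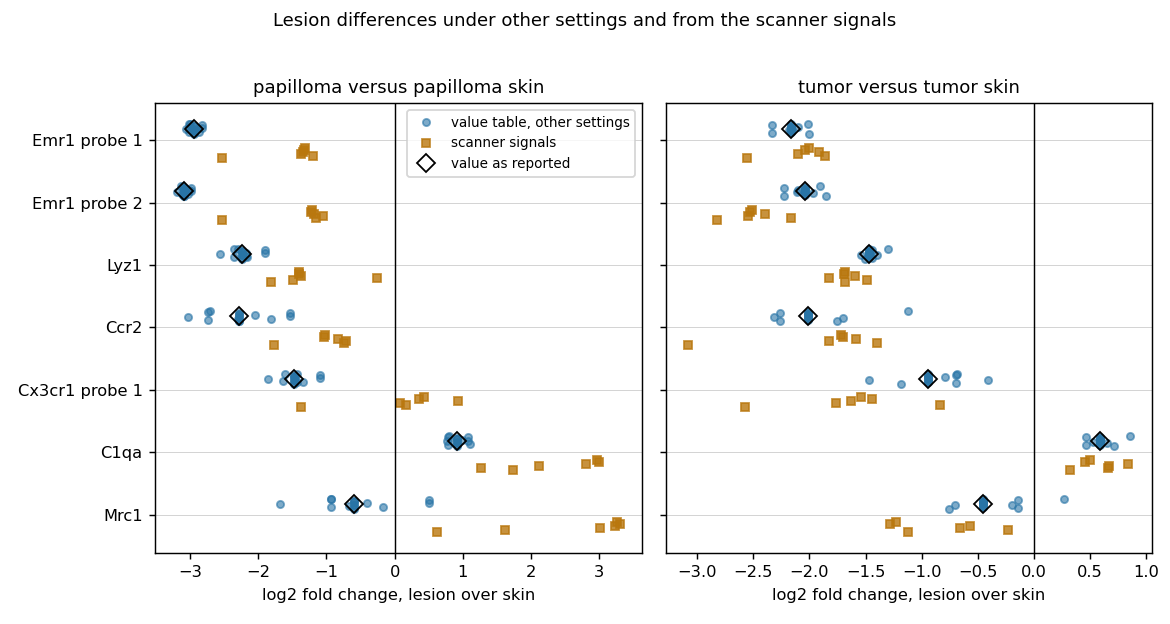
Log2 fold change of lesion over skin (x axis) for 7 probes (y axis) as reported (diamonds), under the other settings on the value table (circles) and from the scanner signals (squares), in papillomas (left) and tumors (right). Emr1 and Lyz1 stay left of 0 in every setting shown, while Mrc1 in both comparisons and Cx3cr1 probe 1 in papillomas cross it.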

How the data were processed

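RNA of Gr-1bright cells was labelled with Cy3 and read on 9 one-colour Agilent mouse arrays on 3 slides. Per the file headers, the scanner files hold background-subtracted intensity for each spot. The authors also deposited 1 log2 value per probe and array. Per the methods, signals were quantile normalized in limma and the chip effect was removed with ComBat; which steps the value table holds is not stated.

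Groups came from the sample labels. Log2 values were fitted by limma 3.58.1 in R 4.3.3 with 1 mean per group over all 9 arrays (5 residual degrees of freedom) and Benjamini-Hochberg adjustment over 55681 probes. A probe was called at an adjusted p up to 0.05 where it also changed by 1 or more on the log2 scale and had a mean level of 6 or more. Members and lists were chosen with earlier results of these data known. Every member probe was named, and of each other list at most 4 genes, the brightest called ones. Cd14, Csf1r, Cd68, Ccl2, Cx3cl1, Ly6g, Epx and Prg2 were chosen after their values were seen. Marker sums are log2 of summed linear values. Replicates are pools, and their number limits the precision.

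Alternatives were 13 other settings and leaving out each array. For 6 of them the scanner signals were normalized anew. All but the normexp setting started from the processed signals (55155 probes), and that setting started from the mean spot signals and their background. Only the setting named for ComBat applied it, in an implementation written here, which does not count the degrees of freedom of the slides. The fits were tested on simulated data. Sequences were read with Python 3.11.15 and figures drawn with matplotlib 3.10.9.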

Additional observations from a re-analysis of the deposited data

How the results depend on the processing

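With 2 or 3 pools a group, precision was low. The 3 calls in tumors against tumor skin became 2 with slide as a term and 2 to 3 when arrays were left out in turn, and the 3 in papillomas were 3 to 4; directions of all called members in these comparisons held in every setting. From the scanner signals, 0 members were called in tumors in all 6 settings, and in papillomas 4 after ComBat and 0 in the other 5. Of those 4, Lyz1 alone was among the 3 reported falls; the others, C1qa, C1qc and Mrc1, were higher in papillomas. The scanner fits called few probes at all, 0 to 122 in tumors.

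The call of Emr1 probe 2 between the skins went to 0 with slide as a term, with the replicate block, without papilloma skin 1 and tumor 1, with array weights, in all 6 scanner settings and with any array left out (0 to 0), and to 2 with the median over the probes of a gene. Its difference turned to 0.91 after ComBat and with slide as a term, 0.78 by quantiles alone, 0.81 by the 75th percentile and 0.73 after normexp. Mrc1 in papillomas turned to 3.26 after ComBat (adjusted p = 0.0328). Of the other lists, in papillomas from the scanner signals, Sepp1 turned to 0.61 and Hp to 0.0316 (75th percentile). There 1 of 2 F13a1 probes turned to 0.73 after ComBat, 0.73 with slide as a term and 0.81 by quantiles alone. Msr1 turned to 0.33 (quantiles) and 0.0031 (normexp). C4b turned to 0.94 after ComBat, 0.95 with slide as a term, 0.79 by quantiles, 0.67 by the 75th percentile and 0.50 after normexp. The cause was not tested. In papillomas Lyz1 was -0.25 by the 75th percentile, a scaling that moved the median of all probes by -0.41 there and by -0.15 in tumors, and quantiles alone moved it by 0.13.

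Among members not called, the sign changed in 12 of 198 values in tumors against tumor skin, 30 of 198 in papillomas, 10 of 264 between lesions, 42 of 242 between skins and 61 of 264 for the stage difference.

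Whether the replicate numbers pair the arrays could not be decided. Correlations of same-numbered deviations were 0.28 between tumor skin and tumor and -0.04 between the skins. They were 0.08 and 0.38 between papilloma skin and papilloma, and reached -0.96 between tumor skin and papilloma. In a group of 2 arrays the deviations mirror each other, and removing a slide effect can take out shared ones. With a replicate block the member counts were 3 in tumors, 3 in papillomas and 0 in the other 3 comparisons.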
